A study of Mus musculus with 8 samples.

Results

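The genes described here are 3 secreted CC chemokines, Ccl3, Ccl4 and Ccl5, and Ccr1, a receptor of Ccl3 and Ccl5: 4 of the 32285 gene identifiers counted in the series. They were taken by symbol, as a ligand and receptor group selected on measured values: earlier results of these data were known. One such result was the donor difference of Ccl5 in dendritic cells of the heart, which is therefore given below as a description and not as independent support. The study measured single-cell RNA of leukocytes from the heart and the blood of recipient mice that carried the marrow of stroke donors (2 mice) or of control donors (2 mice). All 4 recipients were Mx1Cre:c-Myb fl/fl mice whose own marrow had been depleted. In this line the Mx1 promoter, which interferon switches on, drives a Cre recombinase that deletes Myb, a gene blood stem cells need. Resident cells of the heart can outlast such a depletion, so heart cells may be of host or donor origin. Cells were sorted as CD45+CD11b+, heart and blood cells of a mouse were tagged with separate hashtag antibodies and then pooled in 1 library, and RNA was captured at its 3′ end. The age and sex of the mice, the time after transplantation and any injury of the recipients themselves are not given in the sources used here. Nothing in the labels says more of the 2 samples of a group than a replicate number, so p-values measure the spread between these mice.

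Chemokines are small proteins that leukocytes and tissue cells secrete and that guide other leukocytes through receptors coupled to G proteins. Ccl3 and Ccl4 are released by activated macrophages, natural killer (NK) cells, mast cells and T cells, and Ccl5 is stored and released by NK cells and effector T cells. Ccr1 is carried by neutrophils and monocytes in the mouse and draws them towards Ccl3 and Ccl5.

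The 3 ligands lie together on mouse chromosome 11 (GRCm38). Ccl3 (ENSMUSG00000000982) spans 83647844 to 83649355 on the minus strand. Ccl4 (ENSMUSG00000018930) spans 83662584 to 83664683 on the plus strand, so that the starts of Ccl3 and Ccl4 are 13229 bases apart and the 2 genes are read away from each other. Ccl5 (ENSMUSG00000035042) spans 83525778 to 83530518 on the minus strand. Ccr1 (ENSMUSG00000025804) lies on chromosome 9 at 123962124 to 123968692 on the minus strand. The promoters of 2 of the 4 genes were in the RefSeq table used here (build GRCm38.p6), Ccl3 and Ccr1, and the 250 bases before each start are printed because the levels of these 2 genes followed different patterns: Ccr1 was highest in neutrophil-like sums of both organs, and Ccl3, among classes with at least 20 barcodes per mouse, in NK cell-like sums, with a higher level in heart than in blood. The starts used are those of RefSeq. For Ccl3 the window reaches to 83649379, upstream of the start at 83649355 given above, so the bases between were not searched. Capitals mark matches to the motifs TATAA (TATA box) and GAGGAA (a core bound by PU.1) on either strand.
Ccl3 (chr11:83649379-83649628, minus strand): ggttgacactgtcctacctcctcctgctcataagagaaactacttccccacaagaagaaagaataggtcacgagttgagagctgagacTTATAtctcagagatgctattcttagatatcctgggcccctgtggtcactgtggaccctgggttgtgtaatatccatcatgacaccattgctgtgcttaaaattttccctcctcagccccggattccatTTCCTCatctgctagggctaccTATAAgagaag
Ccr1 (chr9:123968693-123968942, minus strand): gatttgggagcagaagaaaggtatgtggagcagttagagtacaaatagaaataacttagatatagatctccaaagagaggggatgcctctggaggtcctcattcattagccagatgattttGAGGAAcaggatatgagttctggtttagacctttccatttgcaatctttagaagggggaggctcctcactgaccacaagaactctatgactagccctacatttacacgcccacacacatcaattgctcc
The Ccl3 window held 2 TATAA matches, 1 on each strand, a motif found in 22.8% of 32851 such windows, and the Ccr1 window held 0. Each window held 1 GAGGAA match, on the strand opposite to the gene in Ccl3 and on the gene's own strand in Ccr1, against 23.3% of all windows with the motif. No match was found in either window to TGANTCA (AP-1, in 6.75% of windows), TGACGTCA (CRE, 1.55%) or TTGCNNAA (C/EBP, 9.56%), which says only that these letters are not in these 250 bases.

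After removal of doublets, 9202 of 11130 barcodes were kept, 4590 from heart and 4612 from blood, with 10059365 to 16482961 UMIs per library. Levels are given as CPM, the UMIs of a gene scaled to a common total of gene UMIs, summed over the barcodes of a mouse, organ and cell class. Classes were named from marker genes and carry the ending "-like", since names were rebuilt here. The clustering did not use the 4 genes. The sort was labelled myeloid, yet 527 heart and 1205 blood barcodes were B cell-like and 168 heart and 484 blood barcodes NK cell-like, so the barcodes went beyond myeloid cells. One library stood apart: in the blood of stroke-marrow mouse 2, 76.5% of barcodes were B cell-like and 46 barcodes were neutrophil-like, against 6.12% B cell-like barcodes in stroke-marrow mouse 1 and 10.7% and 6.30% in the control-marrow mice. Sums over all blood barcodes follow that makeup, and in such sums fewer cells of a type and less RNA per cell cannot be told apart. The heart of control-marrow mouse 1 gave 619 barcodes, the fewest of the 4 hearts. Between libraries, 14 barcode sequences were shared.

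Ccl3 and Ccl4 were detected in nearly every myeloid class of the heart and, in blood, mainly in NK cell-like barcodes. Over the classes with at least 20 barcodes in each mouse, Ccl3 averaged 306 ± 127 CPM in heart NK cell-like, 143 ± 27.6 in heart macrophage-like, 136.5 ± 63.6 in heart nonclassical monocyte-like and 124 ± 78.1 in heart classical monocyte-like sums (SD, n = 4 mice). It averaged 74.2 ± 16.1 CPM in heart neutrophil-like and 25.1 ± 22.2 in heart dendritic cell-like sums. Blood NK cell-like sums averaged 44.1 ± 10.2 CPM, and every other blood class was at or under 5.35 CPM. The 3 heart classes that follow NK cells in this order overlapped one another mouse by mouse.

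Among the same classes Ccl4 was also highest in heart NK cell-like sums, with 1448 ± 515 CPM (SD, n = 4), but the classes below came in another order. Heart neutrophil-like sums averaged 501 ± 238 CPM, macrophage-like 430.5 ± 118, classical monocyte-like 392 ± 181, dendritic cell-like 214 ± 115 and nonclassical monocyte-like 174 ± 92.5 CPM. Blood NK cell-like sums averaged 193 ± 56.5 CPM, and the other blood classes stayed at or under 6.25 CPM. The blood NK cell-like range of 147 to 274.5 CPM overlapped those of heart neutrophil-like, classical monocyte-like, dendritic cell-like and nonclassical monocyte-like sums. Single values of heart NK cell-like sums were 1866 and 809 CPM in stroke-marrow mice and 1252 and 1866 CPM in control-marrow mice, so that stroke-marrow mouse 2 was lowest and the groups overlapped. Heart B cell-like barcodes, taken here as the background class, held 1.73 ± 0.67 CPM of Ccl4, and endothelial-like barcodes held 0 UMIs in each heart (up to 19.04 CPM allowed by a count of 0 in the deepest).

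**Figure D1:**
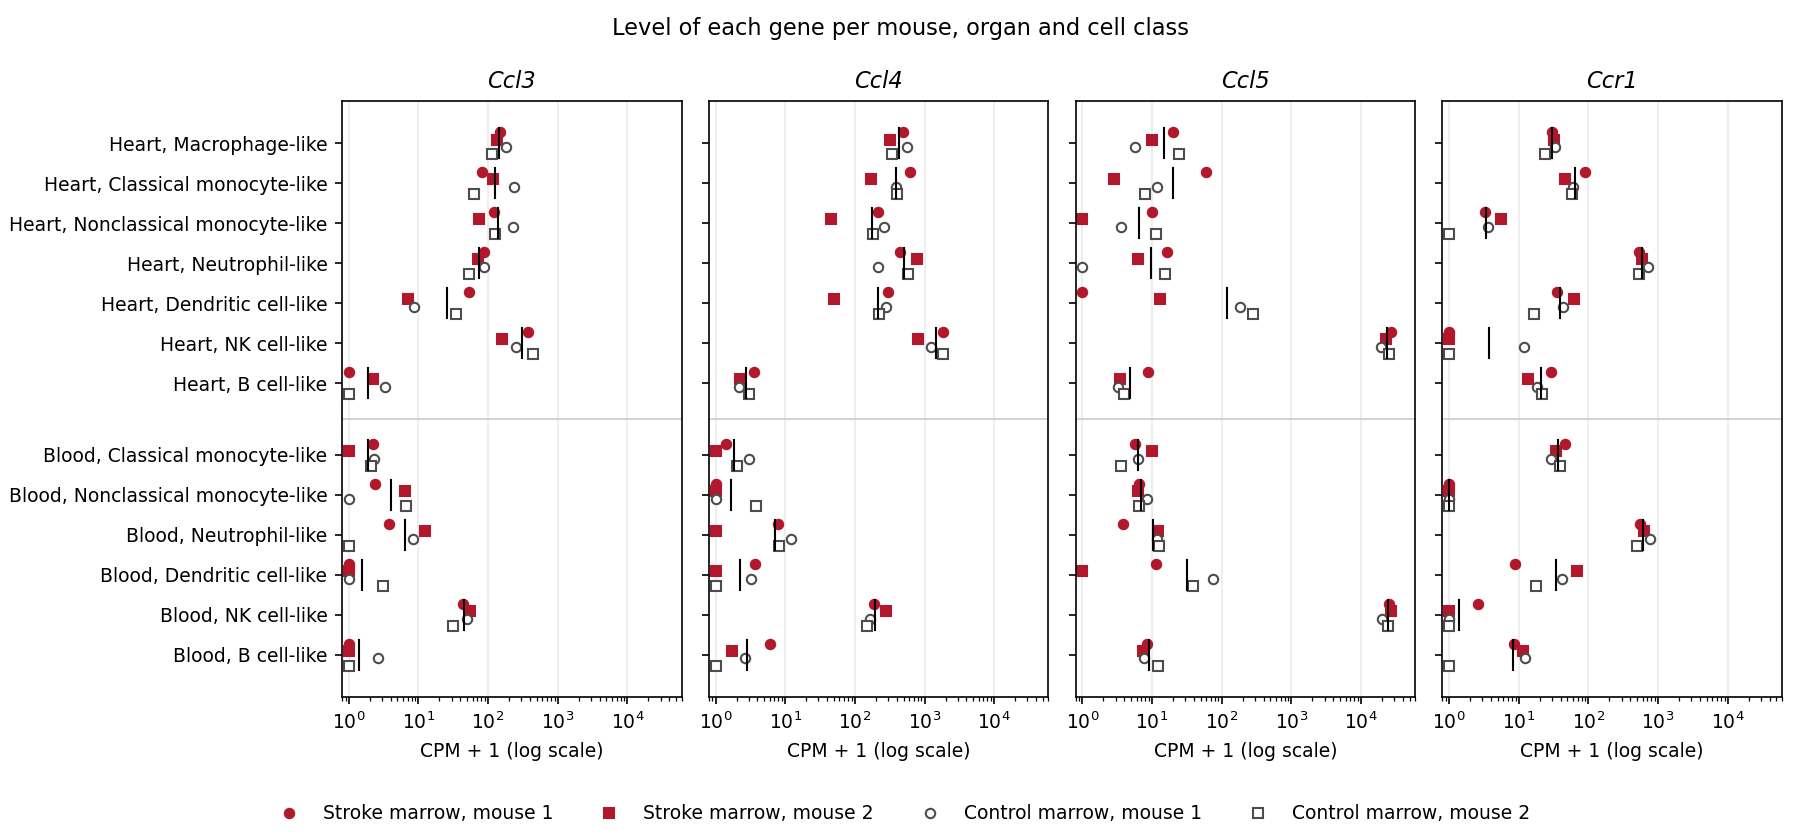
Level of each gene in every mouse, organ and class, as CPM + 1 on a log axis. Red symbols are the stroke-marrow mice, open symbols the control-marrow mice and vertical lines the means of 4 mice. Ccl3 and Ccl4 lie right of their blood counterparts in each heart class that has one, B cell-like aside, Ccl5 stands out in NK cell-like sums of both organs and Ccr1 in neutrophil-like sums of both organs.

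Macrophage-like barcodes, the most numerous in the heart, contributed 56.5% of heart Ccl3 UMIs and 56.0% of heart Ccl4 UMIs while making up 44.6% of heart barcodes. NK cell-like barcodes, 3.66% of the heart, held 6.60% of Ccl3 and 10.2% of Ccl4 UMIs. A small cluster of mast cell or basophil-like barcodes (led by Cd200r3, Cyp11a1, Ms4a2, Mcpt8 and Cpa3, with Ccl3 itself among its 10 leading genes) was 0.261% of heart barcodes, 12 in all, and held 12.2% of heart Ccl3 and 7.96% of heart Ccl4 UMIs. In those barcodes Ccl3 reached 10189 CPM (6 barcodes) and 4126 CPM (2 barcodes) in stroke-marrow hearts and 10061 CPM (4 barcodes) in 1 control-marrow heart, and the other control-marrow heart had no such barcode. Ccl4 stood at 17487 and 9659 CPM in the stroke-marrow hearts and 22043 CPM in that control-marrow heart. Sums over all heart barcodes include these few. In blood, NK cell-like barcodes held 69.0% of Ccl3 and 87.3% of Ccl4 UMIs, out of 100 and 339 UMIs in all.

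**Figure D2:**
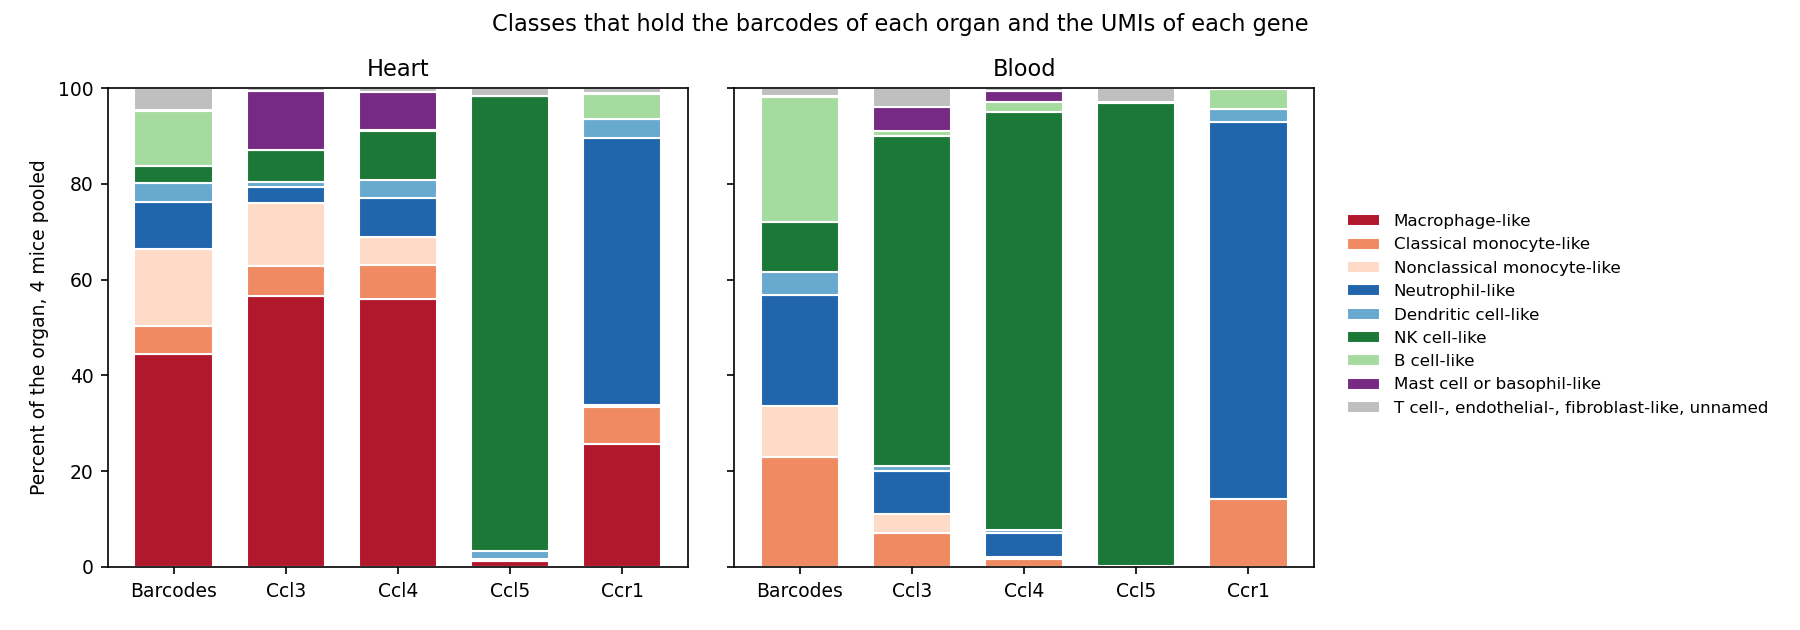
Share of barcodes and of the UMIs of each gene held by each class, in percent of the organ with 4 mice pooled; each colour is a class. In the heart the largest share of Ccl3 and Ccl4 belongs to macrophage-like barcodes, while NK cell-like barcodes hold nearly all Ccl5 in both organs and neutrophil-like barcodes most Ccr1.

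Among heart macrophage-like barcodes a minority carried most of the Ccl3 and Ccl4 RNA, while Ccl5 was spread over nearly all NK cell-like barcodes. With every barcode thinned to 1000 UMIs, Ccl4 was detected in 51.5% of heart NK cell-like barcodes, against 12.7% in blood NK cell-like barcodes (exact 95% intervals 43.6 to 59.4% and 9.80 to 16.0%, counting error only). The unthinned shares were 64.3% and 27.1%, at median depths of 2744 and 3142 UMIs. For Ccl3 the thinned shares were 21.2% in heart and 3.59% in blood NK cell-like barcodes. Among heart macrophage-like barcodes, 12.96% held Ccl4 and 8.72% Ccl3 after thinning, and 22.8% and 20.9% before it (median depth 4640 UMIs). Heart B cell-like barcodes gave 0.382% for Ccl4 after thinning and 0.949% before it, at a median of 5382 UMIs in that background class. The 10% of heart macrophage-like barcodes with the most Ccl4 held 80.6% and 91.2% of Ccl4 UMIs in stroke-marrow mice and 89.2% and 88.8% in control-marrow mice. In heart NK cell-like barcodes the same share was 46.7% and 56.3% in stroke-marrow mice and 43.1% and 44.4% in control-marrow mice. For Ccl5 the top 10% of heart NK cell-like barcodes held 24.7% and 29.1% of UMIs in stroke-marrow mice and 26.1% and 22.3% in control-marrow mice.

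Ccl3 was more frequent among heart macrophage-like barcodes with a Ccl4 UMI than among those without. Of the thinned barcodes with a Ccl4 UMI, 30.4% also held Ccl3 (78 of 257), and of those without, 5.50% did. The direction was the same in each heart: 33.7% against 5.52% and 24.6% against 6.29% in stroke-marrow mice, and 36.4% against 6.17% and 28.8% against 4.48% in control-marrow mice. In heart NK cell-like barcodes the shares were 28.2% with and 13.8% without Ccl4, and in heart neutrophil-like barcodes they were 7.58% and 4.58%. The order was the other way round in neutrophil-like barcodes of stroke-marrow mouse 2 (3.23% with and 5.26% without Ccl4) and in heart classical monocyte-like barcodes (5.71% and 6.79%), where 1 and 2 barcodes held both genes. Barcodes of 1 library share their source and depth still varies before thinning, so these shares are a description.

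The heart macrophage-like barcodes formed 4 clusters that differed in Ccl3 and Ccl4. Cluster 4, led by Ccl12, Ccl2, Creb5 and Mt1, had 921 and 690 CPM of Ccl4 in stroke-marrow mice and 1042 and 664 CPM in control-marrow mice. Cluster 15, led by Cd207, Cxcl13 and Vsig4, had 805 and 402 CPM in stroke-marrow mice and 507 and 1023 CPM in control-marrow mice. Cluster 2, led by Ltc4s, Lyve1, Retnla and Folr2, had 105 and 59.3 CPM in stroke-marrow mice and 148 and 66.6 CPM in control-marrow mice, and cluster 12, led by Cadm1 and Arhgap22, was lower still at 40.6 to 86.3 CPM. The ranges of clusters 4 and 15 lay wholly above those of clusters 2 and 12 in all 4 hearts, for Ccl3 as for Ccl4. Because the clusters were made from genes of the same cells, no test was applied. A split that used only Lyve1, Timd4 and Folr2, markers of long-lived resident macrophages, gave the same order: macrophage-like barcodes with none of the 3 had 996 and 497 CPM of Ccl4 in stroke-marrow and 1019 and 784 CPM in control-marrow hearts. Those with at least 1 of them had 337 and 264 CPM in stroke-marrow hearts and 293.5 and 203 CPM in control-marrow hearts. Depth ran the other way, with median UMIs of 3634 to 4733 without and 4802 to 5280 with the markers. Ccr1 had the opposite order, with 19.7 and 17.3 CPM (stroke marrow) and 22.3 and 3.08 CPM (control marrow) without the markers, against 31.9 and 35.4 CPM (stroke marrow) and 38.2 and 29.2 CPM (control marrow) with them.

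**Figure D3:**
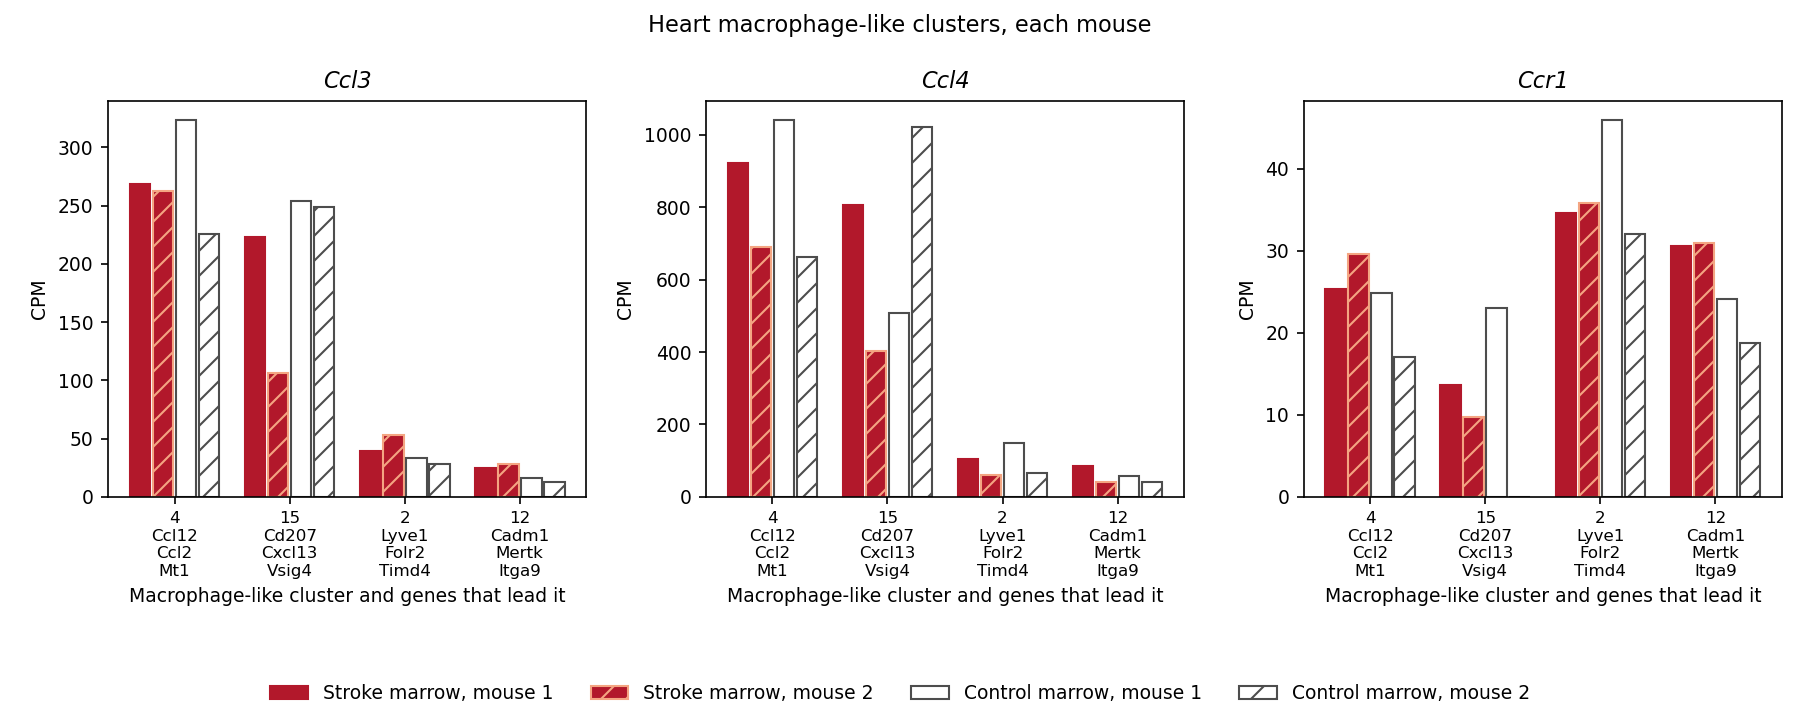
CPM of Ccl3, Ccl4 and Ccr1 in the 4 heart macrophage-like clusters; each bar is 1 mouse, red for stroke marrow and white for control marrow, hatched for mouse 2. Ccl3 and Ccl4 are high in clusters 4 and 15 and low in clusters 2 and 12 in every mouse, while Ccr1 stays under 46.0 CPM throughout.

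Ccl5 was a gene of NK cell-like barcodes in both organs. Heart NK cell-like sums had 26600 and 23205 CPM in stroke-marrow mice and 19670 and 24853 CPM in control-marrow mice. Blood NK cell-like sums had 25255 and 26871 CPM in stroke-marrow mice and 19717 and 24387 CPM in control-marrow mice. The 2 organs overlapped, and after thinning 97.0% of heart and 99.8% of blood NK cell-like barcodes held a Ccl5 UMI. NK cell-like barcodes accounted for 94.96% of heart and 96.7% of blood Ccl5 UMIs. The few T cell-like barcodes, 11 in heart and 64 in blood, came next with 2246 to 4800 CPM in the 3 hearts that had any Ccl5 there. Heart dendritic cell-like sums averaged 119 ± 137 CPM (SD, n = 4), and no other class with at least 20 barcodes per mouse averaged above 30.9 CPM.

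Ccr1 marked neutrophil-like barcodes. Heart neutrophil-like sums averaged 590.5 ± 84.8 CPM and blood neutrophil-like sums 604 ± 112 CPM (SD, n = 4). Heart classical monocyte-like sums came next with 62.5 ± 19.1 CPM, then heart dendritic cell-like with 38.5 ± 18.7, blood classical monocyte-like with 35.8 ± 7.25 and blood dendritic cell-like with 33.2 ± 26.6 CPM, and these last 3 overlapped. Heart macrophage-like sums averaged 28.8 ± 4.07 CPM. Nonclassical monocyte-like sums had 2.36 ± 1.89 CPM in heart, and 0 UMIs were counted in any of the 485 blood barcodes of that class, which allows a level of up to 1.80 CPM. After thinning, 46.0% of heart and 41.8% of blood neutrophil-like barcodes held a Ccr1 UMI, against 1.91% of heart B cell-like barcodes. The heart neutrophil level depended on doublet removal: with automatic Scrublet thresholds it was 343 CPM and with hashtag doublets alone removed 196 CPM, settings under which the cluster led by Acod1 and G0s2 was no longer named and another cluster, with macrophage markers, took its place.

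Which of these genes differed between heart and blood was tested with both organs of each mouse as a pair, over all genes at once. Over all barcodes, Ccl3 and Ccl4 were higher in heart and Ccl5 lower, 3 of the 4 genes, where 16.2% of the genes tested passed in either direction. Ccl3 had 151 and 105 CPM in stroke-marrow hearts and 106 and 105 CPM in control-marrow hearts, against 6.35 and 2.00 CPM in stroke-marrow and 6.87 and 5.92 CPM in control-marrow blood. Its log2 fold change was 4.54 (SE 0.31, adjusted p = 0.00133). Every heart lay above every blood sample. Ccl4 had 484.5 and 282 CPM in stroke-marrow hearts and 310.5 and 332 CPM in control-marrow hearts, against 23.7 and 9.30 CPM in stroke-marrow and 18.7 and 17.5 CPM in control-marrow blood, a log2 fold change of 4.38 (SE 0.19, adjusted p = 0.00042). The organs did not overlap for Ccl4 either. Macrophage-like barcodes, which held 56.5% of heart Ccl3 and 56.0% of heart Ccl4 UMIs, numbered 0 in blood. The 2 organs thus differed in makeup, and its part in these 2 fold changes was not tested.

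Over the same sums Ccl5 fell by 1.73 on the log2 scale in heart (SE 0.20, adjusted p = 0.00581), with 757 and 399 CPM in stroke-marrow and 563 and 639 CPM in control-marrow hearts, against 3023 and 936 CPM in stroke-marrow and 1770 and 2537 CPM in control-marrow blood. NK cell-like barcodes were 3.66% of heart and 10.5% of blood barcodes, and within them Ccl5 differed by -0.03 (SE 0.04, adjusted p = 0.858). The call over all barcodes was lost without stroke-marrow mouse 1 (-1.61, adjusted p = 0.0599) and without control-marrow mouse 2 (-1.6, adjusted p = 0.0549). Ccr1 over all barcodes was not called, at -0.47 (SE 0.57, adjusted p = 0.608). It became 0.01 without control-marrow mouse 1, and without stroke-marrow mouse 2, whose blood held few neutrophils, it was called at -1.08 (adjusted p = 9e-04), as were 40.4% of all genes.

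Within classes, Ccl3 and Ccl4 UMIs were many in heart and few in blood, apart from NK cell-like barcodes, where both organs were well counted. The shares of all genes passing in either direction were 14.8% in classical monocyte-like, 16.5% in nonclassical monocyte-like, 20.5% in neutrophil-like, 6.7% in dendritic cell-like, 7.03% in NK cell-like and 9.85% in B cell-like sums. Outside NK cell-like sums, Ccl3 and Ccl4 passed the filter on low values through their heart sums, which left them little room but to differ. Their tests are therefore not counted as results, and ratios are given with their counting intervals. In classical monocyte-like barcodes 158 Ccl3 UMIs were counted in heart and 7 in blood, a ratio of CPM of 94.4 (95% interval 44.8 to 239), and 525 and 6 Ccl4 UMIs, a ratio of 366 (167 to 1002). Nonclassical monocyte-like barcodes had 323 and 4 Ccl3 UMIs, a ratio of 54.5 (21.1 to 201), and 446 heart Ccl4 UMIs to 1 in blood. Neutrophil-like barcodes had 82 and 9 Ccl3 UMIs (ratio 17.1, 8.57 to 38.7) and 612 and 17 Ccl4 UMIs (ratio 67.45, 41.8 to 116.5). Dendritic cell-like barcodes had 290 heart Ccl4 UMIs to 2 in blood (ratio 173, 47.5 to 1438).

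In NK cell-like barcodes, the class that expressed these genes in blood too, the ratios were smaller and better counted. Ccl3 stood at 374 and 160 CPM in stroke-marrow and 248 and 443 CPM in control-marrow hearts, against 42.9 and 54.0 CPM in stroke-marrow and 49.1 and 30.3 CPM in control-marrow blood, a log2 fold change of 2.91 (SE 0.23, adjusted p = 9.7e-26). Ccl4 had, in blood, 184 and 274.5 CPM (stroke marrow) and 166 and 147 CPM (control marrow), and its log2 fold change was 3.00 (SE 0.13, adjusted p = 6.9e-55). No heart overlapped a blood sample for either gene. Macrophage markers in the NK cell-like sums, 3 to 5 of 10 detected in heart and 4 to 7 in blood, added to 53.9 to 234 CPM in heart and 43.6 to 122 CPM in blood. Mertk and Fcgr1 were at 0 in each heart NK cell-like sum, and none of 6 mast cell markers was detected in an NK cell-like sum of either organ. With only barcodes free of C1qa, C1qb and C1qc UMIs, the log2 fold changes in NK cell-like sums were 2.81 for Ccl3 and 2.91 for Ccl4.

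**Figure D4:**
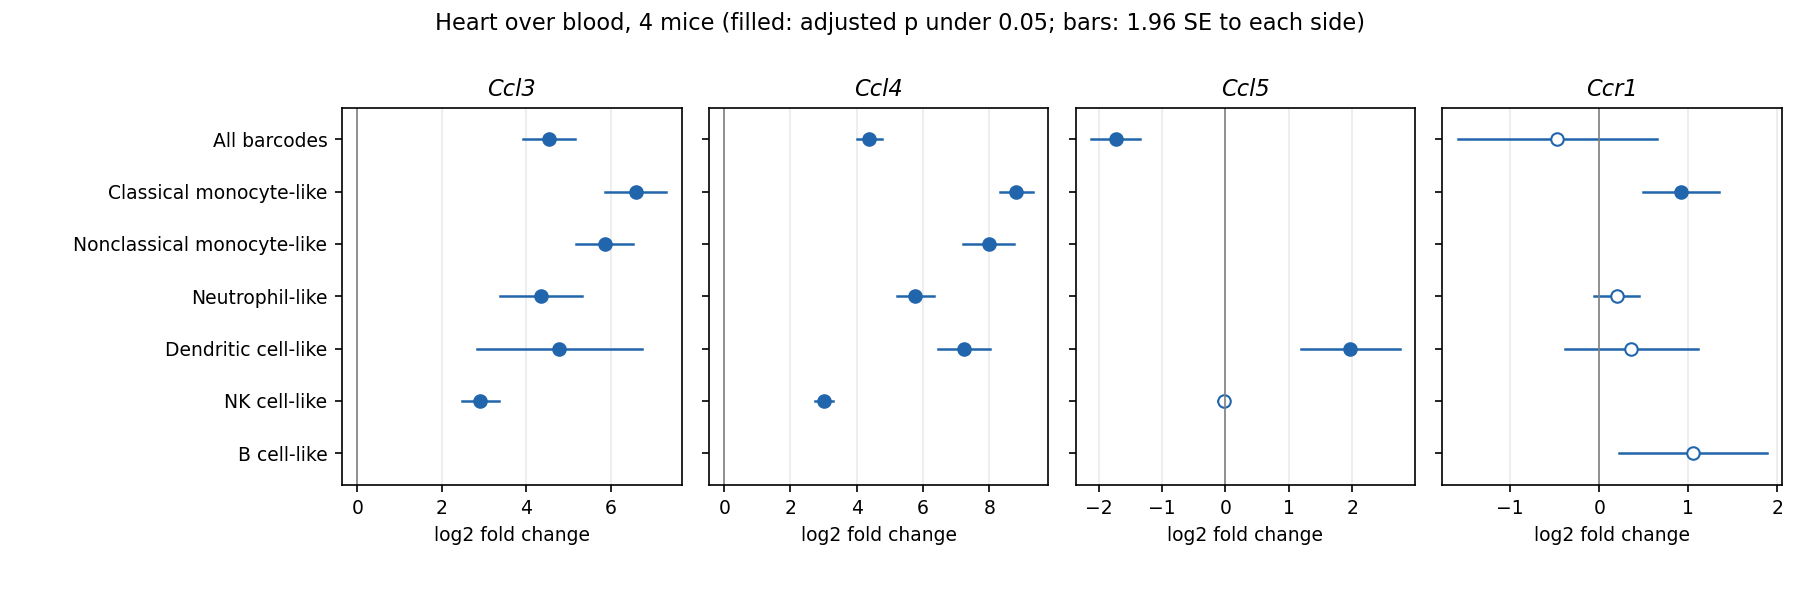
Log2 fold change, heart over blood, of each gene over all barcodes and within classes (n = 4 mice, edgeR); bars are 95% intervals from the SE, filled points have an adjusted p under 0.05, and a missing point means that the gene was not tested there. Ccl3 and Ccl4 lie right of 0 in every row shown, though outside NK cell-like and all-barcode sums they passed the low-count filter through heart alone, and Ccl5 in NK cell-like sums lies at -0.03.

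In 3 of the 6 classes compared, the heart and blood barcodes mostly sat in different clusters. Heart classical monocyte-like barcodes were mainly in cluster 13 (with Thbs1 and Il6 among its leading genes) and those of blood in cluster 1 (Chil3, Fn1), heart neutrophil-like in cluster 10 (Acod1, G0s2) and blood in cluster 0 (Cxcr2, Cd101), heart nonclassical monocyte-like in cluster 6 (Traf1, Dusp16) and blood in cluster 7 (Ace, Dnah12). The NK cell-like and dendritic cell-like barcodes of both organs shared 1 cluster each (168 heart and 484 blood, and 176 heart and 220 blood barcodes), and the B cell-like ones shared 3. Of the nonclassical monocyte-like barcodes with the heart hashtag, 115 were in cluster 7, the blood-dominated one. These held 2 and 0 Ccl3 UMIs in stroke-marrow mice (20.7 and 0 CPM) and 2 and 0 in control-marrow mice (59.1 and 0 CPM). Ccl4 had 6 and 0 UMIs in stroke-marrow mice (62.2 and 0 CPM) and 0 and 0 in control-marrow mice. Cluster 6 of the heart had 84.7 to 241 CPM of Ccl3 and 50.3 to 283 CPM of Ccl4, so that the 2 clusters overlapped for Ccl4. One barcode can weigh heavily: in classical monocyte-like barcodes of stroke-marrow mouse 1, a single barcode held 128 of 192 Ccl4 UMIs. Organ and the preparation of its cell suspension cannot be told apart.

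For Ccl5 and Ccr1 the organ differences within classes were smaller. Ccl5 was higher in heart dendritic cell-like sums by 1.97 (SE 0.40, adjusted p = 0.00594). The levels were 0 and 12.2 CPM in stroke-marrow and 180.5 and 283 CPM in control-marrow hearts, against 10.5 and 0 CPM in stroke-marrow and 75.3 and 37.8 CPM in control-marrow blood. The difference lay in the control-marrow mice, where 1 barcode held 54.8% and 51.9% of the heart UMIs. That call was lost without control-marrow mouse 1 (2.40, adjusted p = 0.0819), without control-marrow mouse 2 (1.2, adjusted p = 0.334), without the mouse block (2.05, adjusted p = 0.193) and with DESeq2 (1.73, adjusted p = 0.234). Ccr1 was higher in heart classical monocyte-like sums by 0.92 (SE 0.22, adjusted p = 0.00223), with 89.6 and 45.0 CPM in stroke-marrow and 58.8 and 56.3 CPM in control-marrow hearts, against 45.0 and 32.7 CPM in stroke-marrow and 28.1 and 37.5 CPM in control-marrow blood. It missed the threshold without stroke-marrow mouse 1 (0.81, adjusted p = 0.0513) and with DESeq2 (adjusted p = 0.107). In neutrophil-like sums, where Ccr1 was highest, it differed by 0.20 (SE 0.13, adjusted p = 0.335).

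The design compared recipients of stroke and of control marrow. Over all heart barcodes none of the 4 genes passed, where 0.0163% of 12298 genes did (2 genes by edgeR, 41 by DESeq2, 918 at an unadjusted p under 0.05). Ccl3 differed by 0.28 (SE 0.18, adjusted p = 0.73) and Ccl4 by 0.25 (SE 0.25, adjusted p = 0.825), stroke over control marrow. With automatic Scrublet thresholds these became -0.29 and -0.17. Ccl5 differed by -0.06 (SE 0.30, adjusted p = 0.976). Ccr1 had 58.1 and 67.5 CPM in stroke-marrow hearts and 50.2 and 39.0 CPM in control-marrow hearts, groups that did not overlap, as was so for 40.0% of genes. Its difference of 0.51 (SE 0.18) had an adjusted p of 0.636. Neutrophil-like barcodes, the main Ccr1 carriers, were 10.9% and 12.4% of stroke-marrow and 9.05% and 6.65% of control-marrow hearts.

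In macrophage-like sums, where most heart Ccl3 and Ccl4 lay, 0.0% of 10416 genes passed (379 at an unadjusted p under 0.05, 1 gene by DESeq2). Ccl3 had 147 and 134 CPM in stroke-marrow and 178 and 112 CPM in control-marrow hearts, a difference of 0.01 (SE 0.19, adjusted p = 1.0). Ccl4 had 495 and 322 CPM in stroke-marrow and 563 and 341 CPM in control-marrow hearts, a difference of -0.12 (SE 0.23, adjusted p = 1.0). Both genes overlapped between the groups.

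In heart nonclassical monocyte-like sums Ccl3 did not pass the test. The groups did not overlap, yet the nearest mice were close: stroke-marrow mouse 1 had 122 CPM (108 UMIs) and control-marrow mouse 2 had 125 CPM (95 UMIs). The values were 122 and 73.7 CPM in stroke-marrow and 225 and 125 CPM in control-marrow hearts, a difference of -0.72 (SE 0.25, adjusted p = 0.847), where 0.0641% of genes passed (0.016% higher and 0.0481% lower) and 32.3% did not overlap. Ccl4 in the same class had 213 and 43.8 CPM in stroke-marrow and 258 and 181.5 CPM in control-marrow hearts (-0.61, SE 0.29, adjusted p = 0.999). In heart NK cell-like sums, where 0.0% of genes passed (81 at an unadjusted p under 0.05, 0 by DESeq2), Ccl4 differed by -0.18 (SE 0.32, adjusted p = 0.994) and Ccl5 by 0.16 (SE 0.18, adjusted p = 0.994). With all 4 mice Ccl4 differed by -0.51 (SE 0.54, adjusted p = 0.883) in heart dendritic cell-like and by -0.10 (SE 0.41) in heart classical monocyte-like sums, and neither passed. The Ccl4 difference in 4 heart classes depended on the mouse left out. Its highest values were -0.02 in nonclassical monocyte-like, 0.27 in dendritic cell-like, 0.62 in classical monocyte-like and 0.29 in NK cell-like sums. Its lowest, in the same order, were -2.33, -2.43, -1.25 and -1.0, without stroke-marrow mouse 1. The stroke-marrow group is then 1 mouse, assumed to vary like the control-marrow pair from which the spread comes. The remaining stroke-marrow mouse, mouse 2, had the lowest Ccl4 level of the 4 mice in each of these classes.

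In heart neutrophil-like sums, where 0.597% of genes passed, all of them higher with stroke marrow, none of the 3 genes tested did (Ccl3, Ccl4 and Ccr1). Ccl4 had 437 and 780.5 CPM in stroke-marrow and 214 and 572 CPM in control-marrow hearts, a difference of 0.58 (SE 0.44, adjusted p = 0.835), which was 1.6 (adjusted p = 0.0107) without control-marrow mouse 2, a fit with 1 control-marrow mouse that called 2.95% of all genes. Macrophage markers moved with the donor in this class, and their part in the values was not tested: all 10 were detected in both stroke-marrow hearts, against 7 and 8 in control-marrow hearts, and their summed level was 4639 and 3517 CPM in stroke-marrow hearts, against 626 and 669 CPM in control-marrow hearts. Without barcodes that held a C1qa, C1qb or C1qc UMI the difference of Ccl4 was 0.81 (adjusted p = 0.991). Ccr1 had 530 and 587 CPM in stroke-marrow and 712 and 534 CPM in control-marrow hearts, a difference of -0.13 (SE 0.27, adjusted p = 0.983).

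Ccl5 in heart dendritic cell-like sums had a donor difference that was known when the genes were chosen, so it is described without a test. In this comparison 0.0227% of 4414 genes passed, and nothing is read from that share. Stroke-marrow hearts had 0 and 12.2 CPM, from 0 and 2 UMIs in 23 and 24 barcodes, and control-marrow hearts had 180.5 and 283 CPM, from 93 and 108 UMIs in 68 and 61 barcodes. Both stroke-marrow hearts were low and the groups did not overlap, as was so for 36.5% of genes. The fitted log2 fold change was -5.18 (SE 0.63), a value that rests on nearly no UMIs in stroke-marrow hearts. Most control UMIs came from few barcodes: 73 of the 93 lay in 5 barcodes and 94 of the 108 in 4 barcodes, each with at least 5 Ccl5 UMIs. These barcodes also held 44 and 18 UMIs of Ccr7, which guides migrating dendritic cells to lymph nodes. Fscn1, a marker of mature dendritic cells, had 9 and 22 UMIs there, but Ccl22, counted beside them, had 0 and 2. The same barcodes held 0 UMIs of the NK and T cell marker lists. Ccr7 was not confined to control-marrow hearts. Summed over all heart dendritic cell-like barcodes, it had 98.69 and 73.03 CPM with stroke marrow and 172.7 and 78.7 CPM with control marrow. The single barcode with the most Ccl5 held 54.8% and 51.9% of the UMIs of its control-marrow heart. Blood dendritic cell-like sums had 10.5 and 0 CPM in stroke-marrow and 75.3 and 37.8 CPM in control-marrow mice, a difference of -2.99 (SE 0.78, adjusted p = 1.0), with 28 of 33 and 13 of 18 control UMIs in 1 barcode each, where 0.0% of genes passed (99 at an unadjusted p under 0.05, 0 by DESeq2) and 28.7% did not overlap.

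In blood, 0.0% of 11430 genes passed over all barcodes (61 at an unadjusted p under 0.05, 0 by DESeq2), and the 4 genes differed by -0.61 (Ccl3, SE 0.64), -0.12 (Ccl4, SE 0.48), -0.11 (Ccl5, SE 0.66) and -1.02 (Ccr1, SE 0.82), with adjusted p of at least 0.971. Without stroke-marrow mouse 1, which leaves the B cell-rich blood of mouse 2 alone, Ccl5 (-1.14, adjusted p = 0.0164) and Ccr1 (-2.52, adjusted p = 0.00465) were called, as were 25.5% of all genes. Within blood NK cell-like sums, Ccl4 differed by 0.46 (SE 0.22) and Ccl5 by 0.23 (SE 0.10), both with an adjusted p of 1.0. Neither gene's groups overlapped, as was so for 31.8% of genes, and 0.0% of genes passed (229 at an unadjusted p under 0.05, 0 by DESeq2). Ccr1 in blood neutrophil-like sums had 555 and 620 CPM in stroke-marrow and 751 and 488 CPM in control-marrow mice, a difference of -0.02 (SE 0.25, adjusted p = 1.0), where 0.0209% of genes passed. Ccr1 differed by 0.34 (SE 0.25, adjusted p = 1.0) in blood classical monocyte-like sums, where 0.0226% of genes passed, all lower, and by -0.11 (SE 0.45, adjusted p = 0.998) in heart B cell-like sums, where 0.084% passed (0.028% higher and 0.056% lower). The remaining classes that tested Ccr1 gave 0.61 (SE 0.58, adjusted p = 0.864) in heart dendritic cell-like, 0.19 (SE 0.22) in heart macrophage-like, 0.11 (SE 0.38) in heart classical monocyte-like and 0.04 (SE 0.95) in blood dendritic cell-like sums, the last 3 with an adjusted p of 1.0. Whether the donor difference itself differed between organs was tested as an interaction, and 0.0% of 12866 genes passed (552 at an unadjusted p under 0.05, 0 by DESeq2). The largest of the 4 interaction values was that of Ccr1, 1.78 (SE 0.87, adjusted p = 0.749), which was 3.10 (adjusted p = 1.8e-25) without stroke-marrow mouse 1, as that of Ccl3, 0.99 (SE 0.43, adjusted p = 0.749), was then 1.66 (adjusted p = 0.00132), in a fit that called 26.0% of all genes.

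**Figure D5:**
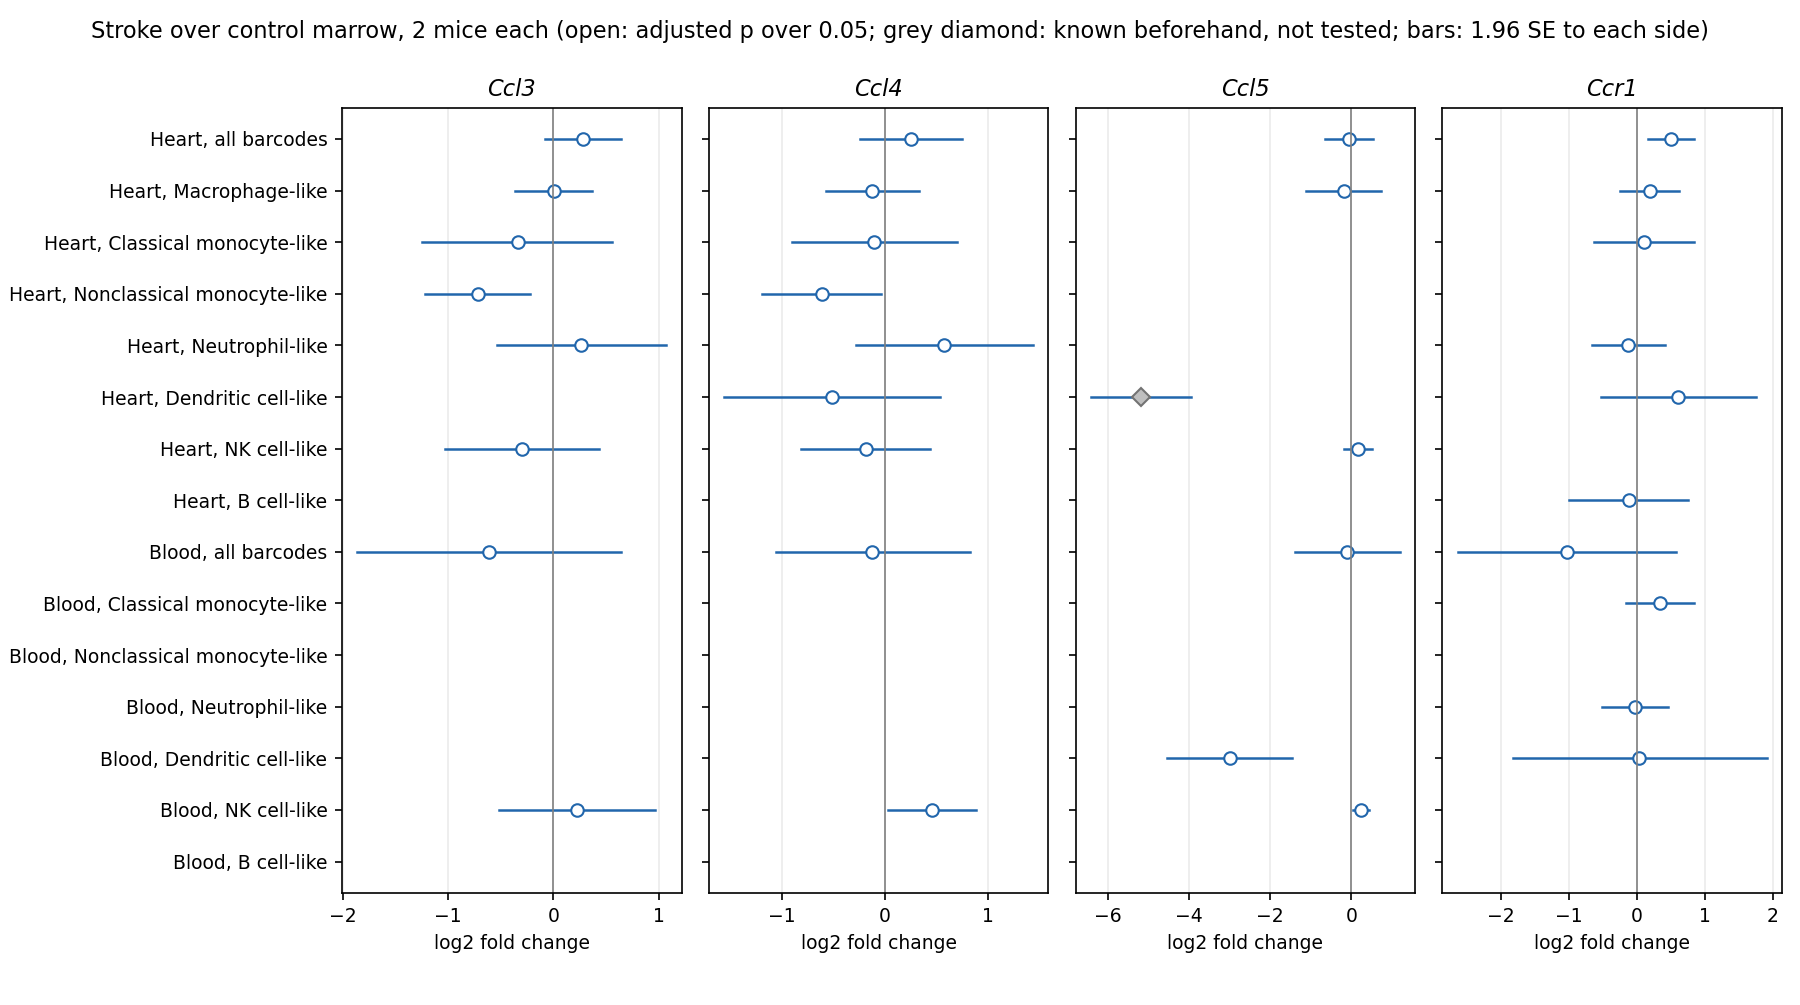
Log2 fold change, stroke over control marrow, of each gene by organ and class (2 mice each, edgeR); bars are 95% intervals from the SE and open points have an adjusted p over 0.05. The grey diamond is Ccl5 in heart dendritic cell-like sums at -5.18, a difference known when the genes were chosen and shown without a test, and all other points are open; each panel has its own scale.

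Other chemokine genes were counted from lists chosen for the pathway. Over all barcodes, 12 of 20 other chemokine ligands tested were higher in heart and 0 lower, with a median log2 fold change of 5.96 beside -0.05 over all genes, of which 10.9% were higher and 5.37% lower. Those with the smallest p were Ccl12 (8.51), Cxcl13 (9.50), Ccl7 (7.82), Ccl24 (7.39) and Cxcl2 (8.49), which draw monocytes, B cells, eosinophils or neutrophils. In blood alone 8 of the listed ligands passed the low-count filter, against 20 in heart. Ccl12, Cxcl13 and Ccl7 had at most 0.747, 0.257 and 0.373 CPM in blood. Ligands that passed through heart sums alone had little room but to differ, so the count and the median are a description. Within classes, Cxcl2, a neutrophil attractant, was higher in heart in classical monocyte-like (8.66), nonclassical monocyte-like (7.84), dendritic cell-like (7.40) and neutrophil-like sums (9.43). Its blood level there was 0 to 12.2 CPM, so these calls share the limit given above for Ccl3 and Ccl4 within classes. In neutrophil-like sums 2 of 6 ligands were higher and 1 lower, the platelet chemokine Ppbp (-4.88), beside 14.3% higher and 6.17% lower over all genes. In NK cell-like sums the 1 ligand tested, Xcl1, which attracts cross-presenting dendritic cells, was higher in heart (1.97, SE 0.26), as were 5.07% of all genes. Among other chemokine receptors, 2 of 14 were higher over all barcodes, Ccrl2, a non-signalling receptor of chemerin, and Ackr3, a scavenger of Cxcl12, a share near that over all genes. Ccrl2 was also higher in heart in classical monocyte-like (5.66), nonclassical monocyte-like (4.98), neutrophil-like (5.46) and dendritic cell-like sums (3.68). Blood held 0 to 22.6 CPM of Ccrl2 in these classes, so the same limit applies. Ccr2, the receptor for Ccl2, was lower in heart in classical monocyte-like (-0.49) and NK cell-like sums (-0.91). Of 23 signalling genes tested over all barcodes, 1 was higher and 3 lower, and the higher one, Rgs1, which dampens chemokine receptor signals, was higher in heart in each of the 6 classes too, by 3.05 to 6.35. Blood NK cell-like sums held 23.8 to 54.0 CPM of Rgs1. The other blood classes held 0 to 25.2 CPM, and the same limit applies to them. These signalling counts lie near the shares over all genes. None of the list genes was called between stroke and control marrow. Over all heart barcodes 18 of 20 ligands had a positive difference, with a median of 0.61 beside 0.0 over all genes. Macrophage-like barcodes were 50.04% and 47.84% of stroke-marrow hearts and 30.53% and 42.47% of control-marrow hearts. The part of this makeup in the balance was not tested. Within classes, 13 of 17 ligands were positive in heart macrophage-like sums (median 0.54) and 7 of 9 in heart dendritic cell-like sums (median 0.47). The balance was the other way in blood, where 1 of 8 ligands over all barcodes was positive (median -0.81), and in heart classical monocyte-like sums, where 1 of 7 was (median -0.35).

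The genes most like each of the 4 in pattern were ranked by Pearson correlation of log2(CPM + 10) over the means of 13 organ and class combinations, among 8939 genes, as a description across points that share libraries. Ccl4 was most like Ccl3 (r = 0.955), followed by Dnajb1 (0.92), Sqstm1 (0.888), Chka (0.866) and Txnrd1 (0.863). Next to Ccl3, the genes most like Ccl4 were Slc20a1 (0.895), Dnajb1 (0.892), Gm20186 (0.881) and Dnaja1 (0.878). Dnajb1 and Dnaja1 encode heat shock co-chaperones, and Sqstm1 and Txnrd1 belong to the oxidative stress response. Ccl5 was followed by Clnk (0.996), Klri2 (0.993), Klre1 (0.99), Car2 (0.989) and Gm33104 (0.987), of which Klri2 and Klre1 are NK cell receptors. Ccr1 was followed by Ifit3b (0.964), Gm37168 (0.946), Glrx (0.944), Gm14548 (0.942) and Antxr2 (0.931), each highest in neutrophil-like sums of heart or blood.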

How the data were processed

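Whole-number UMI counts per gene and barcode were deposited by the authors as 1 matrix of 4 libraries, with hashtag antibody counts beside the genes, per the file headers. Cell Ranger 7.1.0 and build mm10 are named in the submitters' processing notes. Barcode suffixes were taken to follow the sample numbers of the labels, an assumption no file states. The 4 genes and all lists were chosen with earlier results of these data known.

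Organ was called with HTODemux (Seurat 5.3.0, quantile 0.99) and hashtag doublets were removed. Kept barcodes had 200 or more genes and no more than 10% mitochondrial UMIs, and the 6% with the highest Scrublet score were removed from each library. Leiden clusters (scanpy 1.11.5, 2000 variable genes without the 4 genes, 30 components, resolution 1) were named from markers. UMIs were summed per mouse, organ and class with at least 20 barcodes in each of 4 mice. The test was edgeR's quasi-likelihood F test (version 4.0.16) after filterByExpr and TMM scaling, with Benjamini-Hochberg adjustment over all genes and a threshold of 0.05, checked on simulated data, with mouse as a block between organs; adjusted p-values are from these fits. With 2 mice a group an exact permutation test cannot go below p = 0.333, so none is given. Levels allowed by a count of 0 use 3 counts. Intervals are exact (95%) and cover counting error only. Alternatives were DESeq2 1.42.0, other filters, doublet and hashtag calls, clusterings, blocks and mice left out. List genes are named by smallest p, at most 5 a list and comparison.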

Additional observations from a re-analysis of the deposited data

How the results depend on the processing

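Ccl3 and Ccl4 stayed higher in heart, with an adjusted p under 0.05, in every alternative that gave a value, over all barcodes and in NK cell-like sums. They did so in 4 other classes too, where the low-count filter let them pass through heart alone, so that this says little of stability. The count of genes called between stroke and control marrow in heart (2) was 41 with DESeq2, 607 with no low-count filter, 1 with stricter cell filters, and 0 with a fit of all 8 sums, with organ from the hashtag ratio and with the replicate block. It ranged from 0 to 12 with a mouse left out, when 1 group is a lone mouse assumed to vary like the others. In blood (0) the range was 0 to 3055, the highest without stroke-marrow mouse 1, for the interaction (0) it was 0 to 3448, and between organs (2089) it was 411 to 5003. Same-numbered mice deviated oppositely (r = -0.292 in heart and -0.243 in blood). With 2 mice a group, deviations from the group mean mirror each other, so 1 such value per organ cannot tell whether the numbers pair the samples. The replicate block called 0 genes in blood, and the crossed numbers called 5 genes in heart and 0 in blood.

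With automatic Scrublet thresholds and with hashtag doublets alone removed, the donor difference turned to -0.29 and -0.26 for Ccl3 and to -0.17 and -0.19 for Ccl4 over all heart barcodes, to 0.09 and 0.12 for Ccl4 over all blood barcodes, and to 0.20 and 0.25 for Ccl4 in heart classical monocyte-like sums. The interaction turned to -0.02 for Ccl3 (automatic thresholds) and to -0.31 and -0.35 for Ccl4. Ccr1 turned to 0.04 in blood neutrophil-like sums (hashtag doublets alone) and to 0.05, 0.08 and 0.10 in heart neutrophil-like sums (hashtag ratio, resolution 2, no C1q UMI), and Ccl4 to 0.06 in macrophage-like sums (hashtag ratio). The cause was not tested.

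With a mouse left out, donor differences over all barcodes ranged from -0.17 to 0.58 (Ccl4) and -0.57 to 0.32 (Ccl5) in heart, and from -0.89 to 0.39 (Ccl4), -1.14 to 0.49 (Ccl5) and -2.52 to -0.30 (Ccr1) in blood. In macrophage-like sums the ranges were -0.31 to 0.33 (Ccl3), -0.45 to 0.27 (Ccl4) and -0.08 to 0.38 (Ccr1). Ccl4 ranged from -1.25 to 0.62 in heart classical monocyte-like, -2.43 to 0.27 in dendritic cell-like and -1.0 to 0.29 in NK cell-like sums. Ccr1 ranged from -0.26 to 0.01 in heart neutrophil-like, -0.24 to 0.23 in blood neutrophil-like and -0.06 to 0.57 in blood classical monocyte-like sums. The interaction of Ccl5 ranged from -0.14 to 0.60. Between organs the ranges were -1.86 to -1.60 (Ccl5) and -1.08 to 0.01 (Ccr1) over all barcodes, and -0.08 to 0.05 for Ccl5 in NK cell-like sums.

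In heart dendritic cell-like sums the donor difference of Ccl5, which is described without a test, ranged from -9.34 to -4.24 with a mouse left out. It was fitted at -8.05 without the top barcode of each sum and at -8.93 with no C1q UMI. Both Ccl5 UMIs of the stroke-marrow hearts lay in 1 barcode of mouse 2, so the fit without top barcodes had none left there. In NK cell-like sums Ccl5 between organs was called at -0.14 with hashtag doublets alone removed (adjusted p = 0.00795), and Ccr1 between organs in classical monocyte-like sums was 0.56 there (adjusted p = 0.0589). Not every alternative gave a value in every class.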
